A study of Rattus norvegicus with 18 samples.

Results

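Interferon gamma (IFNγ) was added to astrocytes that were at the same time exposed to TIC, the mixture of tumour necrosis factor alpha (TNFα), interleukin 1 alpha (IL1α) and complement C1q that turns cultured astrocytes into a neurotoxic reactive state. The comparison set the 3 libraries of IFNγ with TIC against the 3 libraries of TIC without interferon, 6 of the 18 libraries of the series. It covered every gene that reached 1 FPKM (fragments per kilobase of transcript scaled to the number of mapped fragments) in at least 3 of the 18 libraries, 10296 of the 10431 named genes. The cells were primary rat astrocytes purified by immunopanning, that is by binding to antibody-coated dishes, from the brain at postnatal day 5, and total RNA was taken after 24 h. All groups came from the same kind of culture, and the strain, and the cultures or animals behind each library, were not given in the labels, so that p-values measure the spread between these libraries, which may be technical. Per the labels, IFNγ was used at 3 ng/ml, and in TIC the dose was 30 ng/ml for TNFα, 3 ng/ml for IL1α and 40 ng/ml for C1q. The reference groups were control cells given PBS, IFNγ without TIC, and TIC with 1000 U/ml IFNβ (a type I interferon), each with 3 libraries. The authors' deposited legend gives other doses (IFNγ at 1000 U/ml, IFNβ at 3 ng/ml, C1q at 400 ng/ml), and the sources could not be reconciled, so the ligands are named below without their doses.

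IFNγ, the type II interferon made by T cells and natural killer cells, binds the receptor IFNGR1/IFNGR2, which activates the kinases JAK1 and JAK2. These activate transcription factors that bind GAS elements and induce further ones such as IRF1 and CIITA, and through them antigen processing, MHC class I and class II, GTPases of cell-autonomous immunity and the chemokines that attract CXCR3-bearing T cells. TNFα and IL1α act through a different route, mainly NF-κB, and type I interferons through a complex that holds STAT2 and IRF9 and binds ISRE elements of antiviral genes.

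Promoter sequences are shown for 6 genes that rose most or that stand for a step of this pathway. They were picked because they carry the elements named above. The sequences are RefSeq's (build GRCr8, 250 bases before to 50 after the annotated start, all 6 genes on the plus strand), and capitals mark matches to the GAS letters TTCNNNGAA, the ISRE core GAAANNGAA or the NF-κB core GGANTTTCC, on either strand.
Irf1 (chr10:38417685-38417984): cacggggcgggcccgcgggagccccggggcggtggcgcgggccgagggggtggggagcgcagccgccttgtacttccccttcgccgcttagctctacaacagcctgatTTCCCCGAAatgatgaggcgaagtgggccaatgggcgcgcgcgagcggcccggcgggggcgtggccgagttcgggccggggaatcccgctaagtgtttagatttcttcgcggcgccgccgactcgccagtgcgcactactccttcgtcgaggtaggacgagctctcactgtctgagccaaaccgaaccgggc
Igtp (chr10:42874797-42875096): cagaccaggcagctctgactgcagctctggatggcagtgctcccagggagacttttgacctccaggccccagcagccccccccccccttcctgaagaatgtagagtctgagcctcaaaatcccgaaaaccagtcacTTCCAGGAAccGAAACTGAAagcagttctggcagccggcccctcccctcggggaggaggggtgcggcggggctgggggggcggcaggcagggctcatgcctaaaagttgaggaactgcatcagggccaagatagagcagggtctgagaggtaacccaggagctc
Gbp2 (chr2:234005477-234005776): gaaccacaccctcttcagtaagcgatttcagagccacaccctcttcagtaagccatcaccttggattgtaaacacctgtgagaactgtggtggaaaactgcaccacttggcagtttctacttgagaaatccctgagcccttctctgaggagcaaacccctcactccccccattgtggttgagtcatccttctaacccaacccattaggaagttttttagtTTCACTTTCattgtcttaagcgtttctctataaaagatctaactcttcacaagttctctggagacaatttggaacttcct
Ifit3 (chr1:241527076-241527375): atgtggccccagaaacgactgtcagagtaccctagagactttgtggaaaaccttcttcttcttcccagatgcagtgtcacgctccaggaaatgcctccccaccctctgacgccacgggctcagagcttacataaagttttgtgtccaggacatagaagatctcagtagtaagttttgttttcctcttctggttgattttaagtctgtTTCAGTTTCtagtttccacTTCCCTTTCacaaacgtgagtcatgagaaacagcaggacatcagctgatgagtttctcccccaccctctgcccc
Cxcl10 (chr14:15988816-15989115): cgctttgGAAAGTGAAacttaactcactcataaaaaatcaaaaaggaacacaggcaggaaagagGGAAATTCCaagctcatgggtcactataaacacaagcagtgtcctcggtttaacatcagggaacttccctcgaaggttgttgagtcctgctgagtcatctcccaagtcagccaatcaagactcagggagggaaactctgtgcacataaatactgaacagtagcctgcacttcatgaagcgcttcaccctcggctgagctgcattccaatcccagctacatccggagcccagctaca
Cxcl9 (chr14:16006916-16007215): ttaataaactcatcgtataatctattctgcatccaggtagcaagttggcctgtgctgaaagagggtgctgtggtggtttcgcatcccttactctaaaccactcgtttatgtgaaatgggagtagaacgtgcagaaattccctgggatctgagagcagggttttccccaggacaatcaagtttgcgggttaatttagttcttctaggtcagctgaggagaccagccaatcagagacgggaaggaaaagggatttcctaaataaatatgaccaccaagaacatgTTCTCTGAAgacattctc
In this window Irf1, which codes for an early transcription factor of the response, had 1 GAS match. Igtp, a GTPase that acts on parasite-containing vacuoles, had a GAS and an ISRE match, and Gbp2, a guanylate-binding protein, had an ISRE match close to the start. The promoter window of Ifit3, an antiviral gene, held 2 ISRE matches, that of Cxcl10 1 ISRE and 1 NF-κB match, and that of Cxcl9 1 GAS match after the start. Other genes that rose had no match to any of the motifs in their window, among them Ubd, Cd74, RT1-Da, RT1-Db1, Psmb9, Oasl and Sp100. A promoter window was found for 8434 tested genes, 251 of them through an older symbol. Of the 265 genes whose log2 rise with IFNγ on TIC was at least 1, 199 had a window, and of the 146 with a log2 change of -1 or less, 97. The ISRE core was in 67 of the 199 windows (33.7%), against 10.3% of the 97 windows of genes that fell and 7.03% of all tested genes. GAS matches were in 13.1%, 5.15% and 6.49% of these windows, and NF-κB core matches in 6.03%, 4.12% and 1.45%. Over all 27457 windows of this length in the table the shares were 9.5% for the ISRE core, 8.68% for GAS and 1.26% for the NF-κB core. A match is a description of the letters, not a binding site, and a window without one says only that these letters are not in it.

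**Figure D1:**
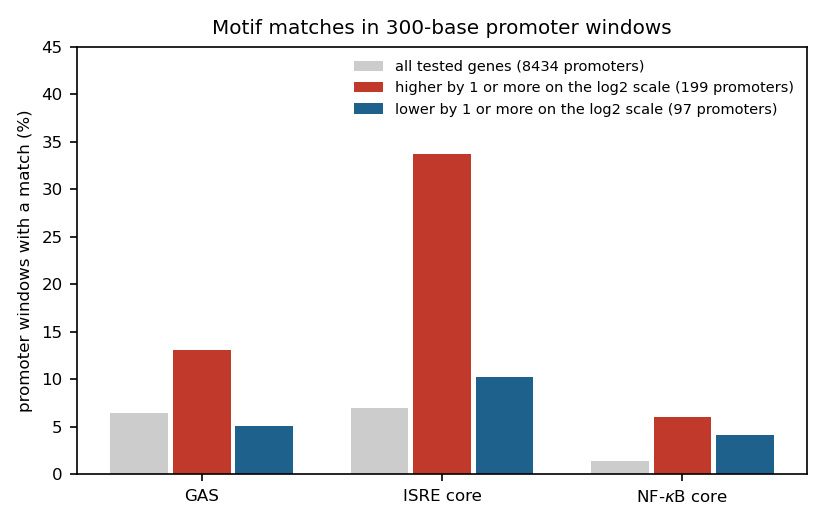
Share of 300-base promoter windows (y axis, percent) with a match to each of 3 motifs (x axis), for all tested genes (grey), genes whose log2 rise with IFNγ on TIC was at least 1 (red) and genes with a log2 change of -1 or less (blue). The ISRE core was in 33.7% of the windows of genes that rose, 10.3% of those of genes that fell and 7.03% of those of all tested genes.

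The libraries of each group were alike. On log2(FPKM + 1) the correlation between libraries was 0.988 to 0.991 within TIC and 0.990 to 0.991 within IFNγ with TIC, against 0.953 to 0.957 between the groups. Summed FPKM per library ran from 524209 to 537418 in TIC and from 526852 to 537698 with IFNγ. The files hold no counts, so the depth is unknown. Each TIC library listed 130 to 150 genes at exactly 0 and each IFNγ with TIC library 118 to 137, and a 0 may stand for a failed estimate. Among the tested genes, 55 went from 0.5 FPKM or less to 10 FPKM or more between libraries of one group, and 6 of these were called higher or lower in the comparison below. The label astrocyte was checked against 9 defining genes, and all 9 were in the table. Their summed level was 1320 to 1350 FPKM in TIC libraries and 884 to 905 FPKM with IFNγ, against 3000 to 3290 FPKM in control, and 8 of the 9 were above 20 FPKM in each of these libraries. The ninth, the glutamate transporter Slc1a3, was at 3.23, 11.7 and 5.11 FPKM in TIC and 7.28, 3.87 and 9.16 FPKM with IFNγ. The lower sum with IFNγ on TIC was mostly Gja1 (mean 494 and 264 FPKM), S100b (302 and 164 FPKM) and Gfap (218 and 158 FPKM). Slc1a2 was also called lower. Aldh1l1 (log2 change 0.08), Aldoc (-0.05), Sox9 (-0.17), Slc1a3 (0.11) and Aqp4 (0.00) were not called.

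IFNγ on TIC changed 3006 of 10296 genes at an adjusted p under 0.05 (29.2%; limma on log2(FPKM + 1), Benjamini-Hochberg adjustment over all tested genes). Of these, 764 rose (7.42%) and 2242 fell (21.8%). By size, the log2 rise was 1 or more for 265 genes (2.57%) and 146 fell by as much (1.42%; 302 with a pseudocount of 0.1 in place of 1). The split of the smaller changes rested on scaling. The median gene fell by 0.12 on the log2 scale with the deposited values and by 0.02 after median-ratio scaling, a shift of 0.10, and with that scaling 1085 genes rose and 1231 fell, so that rising genes made up 46.8% of the calls instead of 25.4%. A small fall is therefore read below against the median of -0.12. Fold changes are on the log2(FPKM + 1) scale, which understates the change of low genes. The 3 libraries of IFNγ with TIC lay wholly above the 3 of TIC for 1206 genes (11.7%) and wholly below for 3660 (35.5%).

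**Figure D2:**
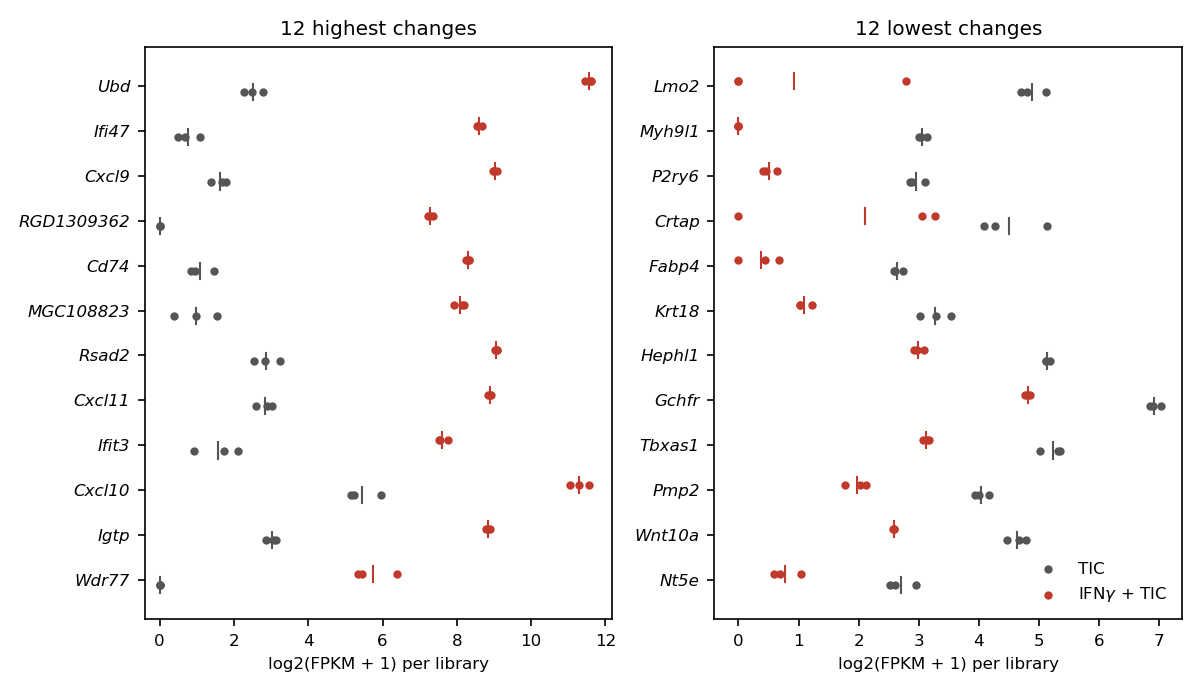
log2(FPKM + 1) in each library (x axis) for the 12 genes with the highest and the 12 with the lowest change with IFNγ on TIC (y axis), in TIC (grey) and IFNγ with TIC (red). Points are libraries and vertical ticks their means; Wdr77, Lmo2, Myh9l1 and Crtap are genes listed at 0 in some libraries and well above it in others.

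In the list of the IFNγ receptor and STAT pathway, 10 of 18 genes rose (55.6%, against 7.42% of all genes). A further 3 fell (16.7%, against 21.8%), and the median change was 0.44 beside -0.12 for all genes. Irf1 stood at 46.8, 48.4 and 53.4 FPKM in TIC and 565, 535 and 497 FPKM with IFNγ. All IFNγ libraries were high, with a change of 3.40 (SE 0.15, adjusted p = 7.59e-12). Irf8, a transcription factor best known from myeloid cells, was at 0.142, 0.536 and 0.119 FPKM in TIC and 23.3, 21.8 and 23.2 FPKM with IFNγ. It was near 0 in every TIC library, and rose by 4.25 (SE 0.15, adjusted p = 3.61e-13). Socs1, the feedback inhibitor of JAK kinases, was at 4.18, 4.36 and 2.51 FPKM in TIC and 29.5, 29.3 and 24.1 FPKM with IFNγ, without overlap, a rise of 2.63 (SE 0.24, adjusted p = 1.88e-07). The 3 genes that fell were the receptor chains Ifngr1 and Ifngr2 and the transcription factor Stat5a. Ifngr1 was at 82.6, 88 and 88.8 FPKM in TIC and 69.1, 67 and 64.2 FPKM with IFNγ, a change of -0.37 (SE 0.08, adjusted p = 0.00223). Ifngr2 changed by -0.32 (SE 0.08, adjusted p = 0.00541), a call that was lost with median-ratio scaling (adjusted p = 0.0712). Stat5a changed by -0.63 (SE 0.09, adjusted p = 3.24e-05). The kinase Jak1 (-0.11, SE 0.07, adjusted p = 0.294), Socs3, Cish, Ptpn2 and Pias1 did not pass the test. Here and below, list members named because a count was 5 or fewer were chosen after their values were seen.

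The interferon-inducible GTPases, which attack the vacuoles of intracellular pathogens, all rose: 6 of 6 measured members, against 7.42% of all genes. Their median change was 4.29. Ifi47 was at 1.11, 0.605 and 0.411 FPKM in TIC and 405, 381 and 370 FPKM with IFNγ. TIC libraries were close to 0, and the change was 7.84 (SE 0.18, adjusted p = 9.15e-16). Igtp was at 6.24, 7.71 and 7.35 FPKM in TIC and 438, 459 and 470 FPKM with IFNγ, a rise of 5.82 (SE 0.10, adjusted p = 3.23e-17). Irgm was at 6.16, 5.74 and 7.48 FPKM in TIC and 257, 266 and 272 FPKM with IFNγ, a rise of 5.16 (SE 0.08, adjusted p = 2.19e-17). For these 3 genes no TIC library came near an IFNγ library. Gbp2 differed in that TIC alone already held it high, at 291, 314 and 327 FPKM against 17, 17.6 and 12.1 FPKM in control. With IFNγ on TIC it reached 3290, 3400 and 3230 FPKM, a rise of 3.41 (SE 0.10, adjusted p = 1.15e-14), and without TIC IFNγ took it to 1160, 1140 and 1160 FPKM. The rise on the log2 scale was smaller on TIC than alone, with a difference of -2.73 (SE 0.14, adjusted p = 1.17e-09). Guanylate-binding proteins have near-identical copies, and reads could have been split between them.

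The highest change of all tested genes was that of Ubd, which codes for FAT10, a ubiquitin-like tag for proteasomal degradation. It was at 4.65, 5.93 and 3.81 FPKM in TIC and 2780, 3100 and 3110 FPKM with IFNγ. Every library of IFNγ with TIC was far above those of the groups without it, and the change was 9.03 (SE 0.22, adjusted p = 1.69e-15). IFNγ without TIC gave 221, 285 and 288 FPKM and IFNβ with TIC 318, 453 and 388 FPKM. The rise was larger on TIC than alone, with a difference of 1.92 (SE 0.31, adjusted p = 0.000446). Among the 12 highest were also the uncharacterised genes RGD1309362 and MGC108823. RGD1309362 was listed at 0 in every TIC and control library and was at 162, 155 and 148 FPKM with IFNγ on TIC, so no fold is given. MGC108823 was at 1.94, 0.318 and 0.976 FPKM in TIC and 289, 280 and 243 FPKM with IFNγ, a rise of 7.10 (SE 0.28, adjusted p = 1.43e-12). Wdr77, a partner of an arginine methyltransferase, was listed at 0 in all TIC libraries and at 39.7, 83.5 and 42.9 FPKM with IFNγ, but it was also listed at 0 or near 40 FPKM among libraries of control and of IFNγ alone.

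MHC class I presentation rose as a block. All 28 measured class I chains rose, against 7.42% of all genes, 27 of these with a log2 change of at least 1. Their median was 3.04. RT1-A2, a classical class I chain, was at 96.2, 115 and 114 FPKM in TIC and 1350, 1360 and 1360 FPKM with IFNγ. The groups were more than 1000 FPKM apart, a change of 3.64 (SE 0.07, adjusted p = 4.49e-17). B2m, the shared light chain, was at 203, 161 and 174 FPKM in TIC and 1200, 1210 and 1200 FPKM with IFNγ, a change of 2.75 (SE 0.10, adjusted p = 4.47e-13). RT1-S3 changed by 4.36 (SE 0.08, adjusted p = 3.23e-17), RT1-CE7 by 3.65 (SE 0.52, adjusted p = 4.32e-05) and RT1-O1, with TIC values of 3.36, 9.07 and 0 FPKM, by 4.03 (SE 0.57, adjusted p = 4.42e-05). The RT1 chains are near-identical copies, so their single values are uncertain, and they are not 28 independent observations. In the list of the immunoproteasome and peptide loading, 11 of 13 genes rose (84.6%) and 0 fell, with a median of 1.78. By unadjusted p under 0.05 the counts were also 11 and 0. Psmb9, an inducible catalytic subunit, was at 49.6, 52.5 and 50.3 FPKM in TIC and 586, 626 and 645 FPKM with IFNγ, a rise of 3.58 (SE 0.08, adjusted p = 9.35e-16). Tap1, which carries peptides into the endoplasmic reticulum, was at 19.7, 23.4 and 21.1 FPKM in TIC and 304, 301 and 301 FPKM with IFNγ, a rise of 3.76 (SE 0.09, adjusted p = 2.2e-15). Psmb8 rose by 3.72 (SE 0.11, adjusted p = 1.29e-14) and Tap2 by 2.78 (SE 0.11, adjusted p = 1.52e-12). Of the constitutive proteasome, 10 of 20 genes rose (50%) and 0 fell (12 and 0 by unadjusted p under 0.05). The changes were much smaller, with a median of 0.19 and Psma7 as the largest at 0.72 (SE 0.08, adjusted p = 4.07e-06).

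RT1-A2 and Psmb9 started from a higher level in TIC than in control, and their rise on the log2 scale was smaller on TIC than alone. RT1-A2 was at 21.6, 23.6 and 23.3 FPKM in control and 1190, 1120 and 1140 FPKM with IFNγ alone, and the rise on TIC minus the rise alone was -1.96 (SE 0.09, adjusted p = 1.06e-09). Psmb9 was at 12.2, 13.4 and 10.6 FPKM in control and 523, 544 and 513 FPKM with IFNγ alone, with a difference of -1.76 (SE 0.12, adjusted p = 5.93e-08). The difference passed the test in the negative direction for 15 of 28 class I chains and 8 of 13 immunoproteasome and loading genes, against 1052 of all 10296 genes (10.2%), and in the positive direction for 1 gene in each list, RT1-S3 and Tap2.

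MHC class II presentation rose in 10 of 14 measured genes (71.4%, against 7.42% of all genes). It fell in 1 (7.14%, against 21.8%), and the median was 2.54. Cd74, the invariant chain, was at 1.77, 0.953 and 0.783 FPKM in TIC and 305, 321 and 319 FPKM with IFNγ. All TIC libraries were under 2 FPKM, and the rise was 7.21 (SE 0.14, adjusted p = 5.95e-17). RT1-Da, a class II alpha chain, was at 0.252, 0.437 and 0.226 FPKM in TIC and 50.2, 49.3 and 46 FPKM with IFNγ, a rise of 5.25 (SE 0.11, adjusted p = 1.48e-16). RT1-Bb rose by 4.86 (SE 0.12, adjusted p = 3.45e-15) and RT1-Ba by 4.65 (SE 0.13, adjusted p = 1e-14). Ciita, the class II transactivator, was low throughout, at 0, 0 and 0.0779 FPKM in TIC and 2.88, 1.98 and 1.98 FPKM with IFNγ. Its groups did not overlap, and it rose by 1.66 (SE 0.14, adjusted p = 9.09e-08). The gene that fell was Ifi30, a lysosomal thiol reductase, at -0.42 (SE 0.08, adjusted p = 0.0007). With IFNβ in place of IFNγ on TIC, Cd74 was at 21.6, 26.3 and 25.4 FPKM, and 9 of the 14 genes were higher with IFNγ than with IFNβ, against 12.7% of all genes. Class II genes are also made by microglia. Of 14 microglia and macrophage markers 4 were in the table, their summed level was 114 to 117 FPKM in TIC and 165 to 170 FPKM with IFNγ, and nearly all of it was Cd68, whose rise (0.56, SE 0.17, adjusted p = 0.0222) was not called without any one of the 6 libraries (adjusted p 0.0526 to 0.0607). Aif1, Tyrobp and Fcer1g were at 3.01 FPKM or less in all of these libraries, and none of the 4 was at 0 throughout. Their part in the class II rise was not tested.

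Antiviral genes of the type I interferon response also rose with IFNγ on TIC. Of 42 measured genes 39 rose (92.9%, against 7.42% of all genes) and 0 fell (40 and 0 by unadjusted p under 0.05). The median was 2.97. Rsad2, which codes for the antiviral enzyme viperin, was at 8.42, 4.78 and 6.19 FPKM in TIC and 523, 538 and 542 FPKM with IFNγ. The libraries with IFNγ lay close together, and the rise was 6.19 (SE 0.17, adjusted p = 1e-14). Ifit3, which binds viral RNA complexes, was at 3.29, 0.892 and 2.3 FPKM in TIC and 183, 217 and 185 FPKM with IFNγ, a rise of 6.03 (SE 0.40, adjusted p = 3.15e-09). Ifit1 rose by 5.17 (SE 0.20, adjusted p = 1.07e-12) and Ifit2 by 5.15 (SE 0.18, adjusted p = 2.61e-13). For many of these genes the rise was larger on TIC than alone. IFNγ alone left Rsad2 at 48, 82.9 and 62.3 FPKM and Ifit3 at 15.6, 15.7 and 10.7 FPKM, and the rise on TIC exceeded the rise alone by 3.34 (SE 0.24, adjusted p = 1.02e-07) for Rsad2 and 4.17 (SE 0.57, adjusted p = 0.000106) for Ifit3. In the same way Oasl, an oligoadenylate synthetase-like protein, was at 1.03, 0.685 and 1.24 FPKM in TIC, 31.6, 33.6 and 31.5 FPKM with IFNγ on TIC and 3.44, 2.65 and 2.57 FPKM with IFNγ alone, a difference of 3.21 (SE 0.21, adjusted p = 5.93e-08). The difference was positive for 24 of the 42 genes and negative for 3, against 3.64% and 10.2% of all genes. In control Rsad2 was at 8.74, 8.15 and 6.8 FPKM and Ifit3 at 7.29, 4.19 and 0.578 FPKM, which overlapped with TIC. The level stayed under that of IFNβ on TIC, which gave 1640, 1730 and 1560 FPKM of Rsad2 and 2190, 2180 and 2320 FPKM of Ifit3. Of the 42 genes, 39 were lower with IFNγ than with IFNβ on TIC and 0 were higher, against 9.72% and 12.7% of all genes. Ifit and Oas genes have close copies, so single values are uncertain.

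**Figure D3:**
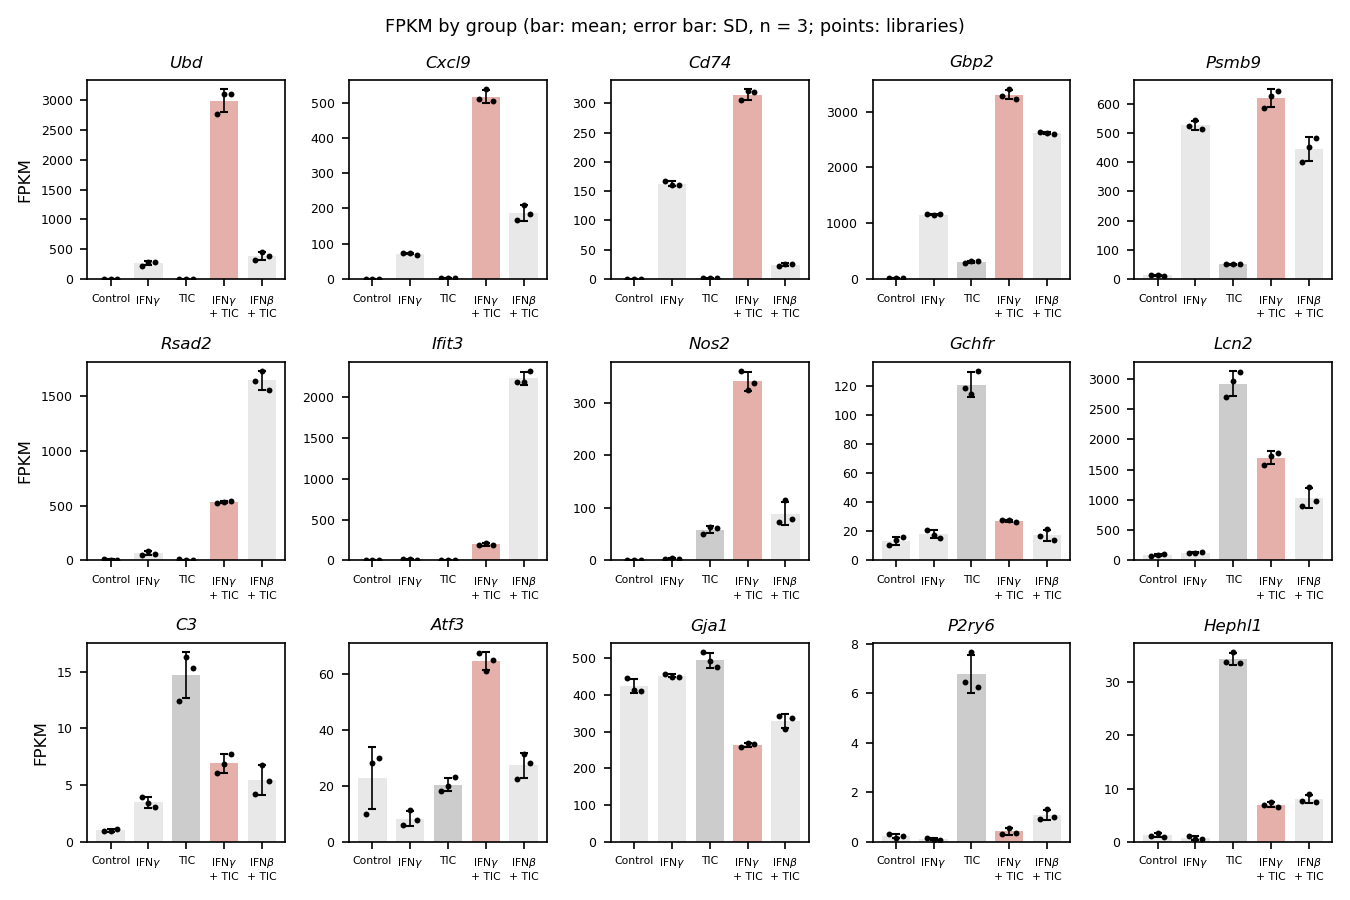
FPKM (y axis, linear, starting at 0) of 15 genes in control, IFNγ, TIC, IFNγ with TIC (red) and IFNβ with TIC; bars are means, error bars SD (n = 3) and points libraries. Ubd, Cxcl9, Nos2 and Atf3 were highest with IFNγ on TIC, Rsad2 and Ifit3 with IFNβ on TIC, and Gchfr, Lcn2, C3, P2ry6 and Hephl1 with TIC without interferon.

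Of 22 chemokines and colony-stimulating factors, 10 rose (45.5%) and 5 fell (22.7%), with a median of 0.25. The share that fell was near the 21.8% of all genes, and the share that rose stood beside 7.42%. The ligands of CXCR3, which draw in activated T cells, rose most. Cxcl9 was at 2.44, 1.62 and 2.2 FPKM in TIC and 510, 537 and 504 FPKM with IFNγ, a rise of 7.40 (SE 0.15, adjusted p = 1.23e-16). Cxcl10 was at 61.7, 34.8 and 36.8 FPKM in TIC and 3020, 2500 and 2100 FPKM with IFNγ, a rise of 5.84 (SE 0.25, adjusted p = 6.54e-12). Cxcl11 was at 6.48, 5.07 and 7.15 FPKM in TIC and 461, 487 and 471 FPKM with IFNγ, a rise of 6.04 (SE 0.24, adjusted p = 2.14e-12). No library of TIC overlapped with one of IFNγ on TIC for these 3 genes. IFNγ alone brought Cxcl9 to 74.6, 72.1 and 69.2 FPKM, and its rise was larger on TIC by 1.43 (SE 0.21, adjusted p = 0.000189), whereas for Cxcl10 the difference missed the threshold (0.91, SE 0.36, adjusted p = 0.109; 95% interval 0.15 to 1.67). Ccl5, a chemokine for T cells and monocytes, was at 203, 225 and 233 FPKM in TIC and 1670, 1980 and 2040 FPKM with IFNγ, a rise of 3.10 (SE 0.24, adjusted p = 2.07e-08).

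The 5 that fell were Cxcl6 and Cxcl2, which attract neutrophils, the colony-stimulating factors Csf2 and Csf3, which expand and activate granulocytes and macrophages, and Cx3cl1, the ligand of the microglial receptor CX3CR1. Csf2 was at 56.2, 66.9 and 92.3 FPKM in TIC and 23.8, 26.5 and 37.3 FPKM with IFNγ. The groups did not overlap, and the change was -1.26 (SE 0.19, adjusted p = 8.42e-05). Csf3 was at 41.4, 35.7 and 38.7 FPKM in TIC and 19.2, 15.6 and 14.6 FPKM with IFNγ (-1.19, SE 0.20, adjusted p = 0.000299). Cxcl6 was at 36.4, 38 and 46.5 FPKM in TIC and 14.4, 11.1 and 10.9 FPKM with IFNγ (-1.66, SE 0.33, adjusted p = 0.00111). In control no library exceeded 1.17 FPKM for Csf3 or Cxcl6. Cxcl2 changed by -0.81 (SE 0.16, adjusted p = 0.000792) and Cx3cl1 by -0.79 (SE 0.11, adjusted p = 3.47e-05). The other neutrophil chemokines of the list did not pass the test, with differences of -0.22 (SE 0.13, adjusted p = 0.242) for Cxcl1 and -0.17 (SE 0.16, adjusted p = 0.489) for Cxcl3. With a pseudocount of 0.1 in place of 1, 1 of the 22 genes was called lower. Ccl2, which attracts monocytes, was among the most abundant transcripts, at 12500, 9800 and 10600 FPKM in TIC and 12800, 12500 and 12600 FPKM with IFNγ, and did not pass the test (0.21, SE 0.16, adjusted p = 0.349; 95% interval -0.12 to 0.54).

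Of 23 interleukins, TNF family members and their receptors, 10 rose (43.5%) and 2 fell (8.7%), with a median of 0.18. Over all genes 7.42% rose and 21.8% fell. Il18bp, a soluble inhibitor of interleukin 18, was at 3.39, 5.54 and 2.77 FPKM in TIC and 82.9, 90.9 and 85.3 FPKM with IFNγ, a rise of 4.20 (SE 0.19, adjusted p = 1.04e-11). Tnf itself was at 3.81, 4.72 and 6.74 FPKM in TIC and 21.1, 25.8 and 30.8 FPKM with IFNγ, a rise of 2.16 (SE 0.24, adjusted p = 3.34e-06). The groups of both genes did not overlap. Il15, which sustains natural killer and memory T cells, rose by 2.88 (SE 0.39, adjusted p = 2.37e-05) and Ltb by 1.89 (SE 0.14, adjusted p = 1.01e-08). The 2 that fell were Tnfsf9 and Il1rap, and this count was 1 with median-ratio scaling, with a pseudocount of 0.1, or after leaving out TIC replicate 2, TIC replicate 3 or IFNγ with TIC replicate 2, and 0 without IFNγ with TIC replicate 1 or 3. In the cell death and inflammasome list, 10 of 23 genes rose (43.5%), with a median of 0.28. A further 4 fell (17.4%, under the 21.8% of all genes). Casp1, the caspase that matures interleukin 1 beta, was at 1.28, 1.22 and 0.137 FPKM in TIC and 17, 16.4 and 16.6 FPKM with IFNγ, a rise of 3.30 (SE 0.27, adjusted p = 5.92e-08). Its adaptor Pycard rose by 2.0 (SE 0.20, adjusted p = 5.22e-07), Casp12 by 1.67 (SE 0.20, adjusted p = 7.67e-06) and the pore protein Gsdmd by 1.63 (SE 0.10, adjusted p = 4.93e-10). The 4 that fell, among them Bcl2l11, Tnfrsf10b and Bax, fell by 0.58 or less, and median-ratio scaling left 1 of them. That count was also 1 without TIC replicate 2 or IFNγ with TIC replicate 3, and 2 without TIC replicate 3 or IFNγ with TIC replicate 1.

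Of 19 subunits and feedback genes of NF-κB, the pathway driven by TNFα and IL1α, 13 did not pass the test. A further 5 rose (26.3%, against 7.42% of all genes) and 1 fell (5.26%, against 21.8%). The median of the list was 0.16. Nfkbia, the inhibitor induced by NF-κB, was at 313, 320 and 359 FPKM in TIC and 356, 357 and 387 FPKM with IFNγ, a difference of 0.15 (SE 0.10, adjusted p = 0.275). Its groups overlapped, and the 95% interval was -0.06 to 0.36. The largest change was that of Birc3, an inhibitor of apoptosis, at 34.9, 35.6 and 33.8 FPKM in TIC and 58.2, 51.7 and 52.2 FPKM with IFNγ, a rise of 0.62 (SE 0.11, adjusted p = 0.000362). The other genes that rose were Birc2, Tnip2, Traf2 and the subunit Rela, and the gene that fell was Traf3. With median-ratio scaling 8 genes rose and 0 fell. The count of 5 that rose was 3 without TIC replicate 1 or 3 or IFNγ with TIC replicate 1 or 2, the count of 1 that fell was 0 without TIC replicate 3 or IFNγ with TIC replicate 1, and Tnip2 was not called without TIC replicate 2 (adjusted p = 0.0639). Among 9 leukocyte adhesion and checkpoint genes, 4 rose (44.4%, against 7.42% of all genes) and 3 fell (33.3%, against 21.8%). Vcam1, an adhesion molecule for leukocytes, was at 681, 636 and 627 FPKM in TIC and 1300, 1300 and 1220 FPKM with IFNγ, a rise of 0.97 (SE 0.07, adjusted p = 3.74e-09). Cd274, which codes for the checkpoint ligand PD-L1, was at 0, 0.512 and 0.27 FPKM in TIC and 5.82, 5.09 and 3.91 FPKM with IFNγ, a rise of 2.24 (SE 0.28, adjusted p = 1.08e-05). Lgals9 rose by 3.64 (SE 0.26, adjusted p = 7.45e-09) and the fourth riser was Cd47. Cd276, another checkpoint ligand, went the other way, from 88, 90.7 and 94.9 FPKM in TIC to 47.3, 44.7 and 42.9 FPKM with IFNγ, and fell by 1.0 (SE 0.06, adjusted p = 1.12e-09). The other genes that fell were Cd80 (-0.91, SE 0.16, adjusted p = 0.000311) and Vsir (-0.35, SE 0.08, adjusted p = 0.00242).

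Complement rose in 8 of 10 measured components and regulators (80%, against 7.42% of all genes), with a median of 2.05. It fell in 2 (20%, near the 21.8% of all genes). C2 was at 3.2, 2.81 and 4.11 FPKM in TIC and 128, 140 and 131 FPKM with IFNγ, a rise of 4.95 (SE 0.10, adjusted p = 2.75e-16). Cfb, the factor B of the alternative pathway, was at 8.83, 8.26 and 12.5 FPKM in TIC and 150, 164 and 154 FPKM with IFNγ, a rise of 3.87 (SE 0.15, adjusted p = 8.32e-13). C1s, the protease of the C1 complex, was at 87.8, 93.4 and 91.4 FPKM in TIC and 776, 782 and 777 FPKM with IFNγ, a rise of 3.09 (SE 0.08, adjusted p = 3.21e-15). Each of these 3 genes was higher in every IFNγ library than in any TIC library. Serping1, the inhibitor of C1, rose by 3.01 (SE 0.12, adjusted p = 2.03e-12). The central component moved the other way: C3 was at 12.4, 16.3 and 15.3 FPKM in TIC and 6.07, 6.9 and 7.78 FPKM with IFNγ, and fell by 0.98 (SE 0.17, adjusted p = 0.000249). IFNγ alone raised C3 from 0.923, 0.965 and 1.18 FPKM in control to 4, 3.4 and 3.06 FPKM, and the change on TIC minus that alone was -2.13 (SE 0.23, adjusted p = 1.33e-05). The other gene that fell was Cd59, which blocks the membrane attack complex (-0.69, SE 0.14, adjusted p = 0.00129). Cfb rose more on TIC than alone (1.61, SE 0.21, adjusted p = 5.82e-05), and Serping1 less (-1.21, SE 0.17, adjusted p = 0.000142).

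Lists of genes used to grade reactive astrocytes held both rises and falls, where 7.42% of all genes rose and 21.8% fell. In the A1 list, drawn up for neurotoxic reactive astrocytes, 6 of 9 measured genes rose (66.7%) and 2 fell (22.2%), with a median of 1.61. The share that fell was near that of all genes. The 4 with the largest change were Psmb8, RT1-A2, Gbp2 and Serping1, given above, which belong to antigen presentation, the GTPases and complement. The 2 that fell were C3 and Fbln5, and Fbln5 was not called with median-ratio scaling (adjusted p = 0.0628), with a pseudocount of 0.1, or without TIC replicate 2 or 3 or IFNγ with TIC replicate 1 or 3, where the count of falling genes was 1. In the pan-reactive list, 6 of 13 rose (46.2%) and 2 fell (15.4%, under the share of all genes), with a median of 0.19. Lcn2, a secreted siderophore-binding protein, was at 67.9, 91.2 and 106 FPKM in control, 2700, 2960 and 3110 FPKM in TIC and 1580, 1730 and 1780 FPKM with IFNγ. The IFNγ libraries were all lower, and Lcn2 fell by 0.78 (SE 0.14, adjusted p = 0.000347). Gfap was the other gene of the list that fell, from 211, 225 and 217 FPKM in TIC to 157, 167 and 151 FPKM with IFNγ (-0.46, SE 0.08, adjusted p = 0.000525). Vim, the other main intermediate filament, was at 544, 561 and 569 FPKM in TIC and 599, 608 and 595 FPKM with IFNγ and did not pass the test (0.11, SE 0.08, adjusted p = 0.341), but was called higher with median-ratio scaling (0.23, adjusted p = 0.0343). Cp, the copper-carrying ferroxidase ceruloplasmin, rose by 1.05 (SE 0.11, adjusted p = 7.42e-07) and the lipid receptor S1pr3 by 0.73 (SE 0.14, adjusted p = 0.000745). In the A2 list, drawn up for reactive astrocytes after ischaemia, 2 of 9 genes rose (22.2%) and 4 fell (44.4%), with a median of -0.48. Tm4sf1, a tetraspanin-like membrane protein, was at 5.92, 4.25 and 5.8 FPKM in TIC and 1.31, 0.913 and 0.895 FPKM with IFNγ, and fell by 1.63 (SE 0.18, adjusted p = 2.29e-06). Cd14 fell by 1.05 (SE 0.19, adjusted p = 0.000405) and Ptx3 rose by 0.81 (SE 0.16, adjusted p = 0.000943). The counts were small: 2 genes fell with a pseudocount of 0.1, and 1 rose without TIC replicate 3 or IFNγ with TIC replicate 1 or 3.

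Transcripts of an enzyme that makes nitric oxide and of a regulator of its cofactor changed. Nos2, the inducible nitric oxide synthase, was at 50.6, 64.2 and 61.4 FPKM in TIC and 360, 324 and 338 FPKM with IFNγ. All IFNγ libraries were above 300 FPKM, and the rise was 2.52 (SE 0.22, adjusted p = 1.21e-07). IFNγ alone gave 2.42, 3.8 and 3.16 FPKM and IFNβ with TIC 73.8, 114 and 78.9 FPKM. Gch1 makes the precursor of tetrahydrobiopterin, the cofactor that Nos2 needs, and was at 10.4, 13.3 and 10.9 FPKM in TIC and 12.1, 12.4 and 10.8 FPKM with IFNγ. Its groups overlapped, and the difference was 0.03 (SE 0.19, adjusted p = 0.927), with a 95% interval of -0.37 to 0.43. Gchfr, whose product holds back that enzyme when the cofactor is plentiful, was at 118, 114 and 130 FPKM in TIC and 27.4, 27.8 and 26.3 FPKM with IFNγ. The change was -2.11 (SE 0.14, adjusted p = 3.98e-09), one of the 12 lowest of the comparison. Control libraries were lower still, at 10.5, 13.8 and 15.8 FPKM, without overlap. With IFNγ alone Gchfr was at 20.9, 17.5 and 15.5 FPKM, and the change on TIC minus that alone was -2.52 (SE 0.20, adjusted p = 3.54e-07). Of the 13 enzymes and transporters of arginine, nitric oxide, tetrahydrobiopterin and tryptophan, 4 rose (30.8%, against 7.42% of all genes) and 3 fell. The median was near 0. The 3 that fell (23.1%, near the 21.8% of all genes) were Gchfr, Qdpr (-0.46, SE 0.09, adjusted p = 0.00095) and Spr (-0.25, SE 0.08, adjusted p = 0.032), and Spr was not called with median-ratio scaling (adjusted p = 0.239). The other risers were Acod1, which makes itaconate (1.96, SE 0.14, adjusted p = 1.01e-08), Wars, the tryptophan tRNA ligase (0.83, SE 0.09, adjusted p = 2.93e-06), and the arginine transporter Slc7a2.

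The 12 largest falls included receptors, enzymes, a Wnt ligand and lipid-binding proteins, several of them higher in TIC than in control. P2ry6, a receptor for extracellular UDP, was at 6.43, 7.64 and 6.25 FPKM in TIC and 0.322, 0.562 and 0.377 FPKM with IFNγ. Control libraries were under 0.5 FPKM, and the change was -2.45 (SE 0.12, adjusted p = 6.02e-11). Hephl1, a copper-dependent ferroxidase, was at 33.7, 35.5 and 33.6 FPKM in TIC and 6.86, 7.49 and 6.6 FPKM with IFNγ, and fell by 2.14 (SE 0.14, adjusted p = 2.22e-09). Wnt10a, a Wnt ligand, was at 24.5, 26.5 and 21.2 FPKM in TIC and 4.95, 5 and 5.02 FPKM with IFNγ, and fell by 2.06 (SE 0.14, adjusted p = 3.46e-09). The groups of these 3 genes were far apart. Tbxas1, the thromboxane synthase, was at 31.3, 38.9 and 40.1 FPKM in TIC and 8.06, 7.81 and 7.41 FPKM with IFNγ, and fell by 2.10 (SE 0.12, adjusted p = 3.47e-10), and in control it was at 38.1, 43.6 and 55.3 FPKM. The fatty-acid-binding proteins Fabp4 and Pmp2 changed by -2.27 (SE 0.22, adjusted p = 4.26e-07) and -2.06 (SE 0.23, adjusted p = 2.38e-06), the keratin Krt18 by -2.19 (SE 0.19, adjusted p = 1.57e-07) and the ectonucleotidase Nt5e, which makes adenosine, by -1.93 (SE 0.18, adjusted p = 2.58e-07). Fabp4, Krt18 and Nt5e were between 4.77 and 10.6 FPKM in TIC and at most 1.35 FPKM with IFNγ. Lmo2, Myh9l1 and Crtap were listed at 0 in some libraries and at several FPKM or more in others of the same group or of the other. Lmo2 was at 33.9, 27 and 25.2 FPKM in TIC and 5.88, 0 and 0 FPKM with IFNγ (-3.95, SE 0.92, adjusted p = 0.00367). Myh9l1 was at 7.21, 7.8 and 7.01 FPKM in TIC, was listed at 0 in all IFNγ with TIC libraries and was not called when any of the 6 libraries was left out (adjusted p 0.0522 to 0.0614). Crtap, at 16, 18.3 and 34.2 FPKM in TIC and 7.27, 8.7 and 0 FPKM with IFNγ, changed by -2.39 (SE 0.80, adjusted p = 0.033). It was not called with median-ratio scaling (adjusted p = 0.0566), with a pseudocount of 0.1 (0.102), or without TIC replicate 2 (0.0619), TIC replicate 3 (0.117) or IFNγ with TIC replicate 3 (0.196).

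Most called genes of astrocyte identity and homeostasis were lower. Of 27 measured genes 15 fell (55.6%, against 21.8% of all genes) and 1 rose (3.7%, against 7.42%). The median was -0.36 beside -0.12 for all genes. With median-ratio scaling 12 fell, with a median of -0.24 beside -0.02. Gja1, the gap junction protein connexin 43, was at 515, 491 and 475 FPKM in TIC and 257, 268 and 265 FPKM with IFNγ. The groups did not overlap, and Gja1 fell by 0.90 (SE 0.06, adjusted p = 2.97e-09). IFNγ alone left it at 456, 449 and 449 FPKM beside 445, 413 and 411 FPKM in control, and the difference of the changes was -1.0 (SE 0.08, adjusted p = 7.71e-07). S100b, a calcium-binding protein, was at 298, 303 and 307 FPKM in TIC and 158, 163 and 171 FPKM with IFNγ, and fell by 0.88 (SE 0.06, adjusted p = 2.97e-09). The GABA transporter Slc6a11 changed by -0.76 (SE 0.13, adjusted p = 0.000203) and the growth factor receptor Fgfr3 by -0.71 (SE 0.12, adjusted p = 0.000258). The glutamate transporter Slc1a2 fell by 0.37 (SE 0.08, adjusted p = 0.00305). The water channel Aqp4 was at 32.5, 24.1 and 27.9 FPKM in TIC and 25.5, 29.8 and 29 FPKM with IFNγ, with overlapping groups (0.00, SE 0.13, adjusted p = 0.995; 95% interval -0.28 to 0.28). The gene that rose was Fabp7 (0.24, SE 0.08, adjusted p = 0.0358), and this call was lost without TIC replicate 1 or 2 or IFNγ with TIC replicate 2 or 3. In bulk samples fewer cells of a type and less RNA per cell cannot be told apart.

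Markers of oligodendrocyte precursors fell as well. Of 7 such markers 5 were in the table, and all 5 fell, against 21.8% of all genes. Their sum was 259 to 288 FPKM in TIC, 130 to 137 FPKM with IFNγ and 905 to 1160 FPKM in control. Most of the sum was Olig1 and Olig2, transcription factors of the oligodendrocyte lineage. Not every marker was lower in TIC than in control. Cspg4 averaged 1.51 FPKM in control and 5.48 FPKM in TIC, and Pdgfra 2.72 and 2.66 FPKM. Olig1 was at 208, 219 and 193 FPKM in TIC and 96.2, 96.9 and 92.2 FPKM with IFNγ, and fell by 1.11 (SE 0.09, adjusted p = 7.77e-08). Cspg4 changed by -1.09 (SE 0.16, adjusted p = 8e-05), C1ql1 by -1.13 (SE 0.14, adjusted p = 1.01e-05) and Pdgfra, the defining receptor, at 3.03 FPKM or less, by -0.74 (SE 0.14, adjusted p = 0.000803). Oligodendrocyte markers (4 of 7 in the table) summed to 66.9 to 78.2 FPKM in TIC and 80 to 81 FPKM with IFNγ, nearly all of it Cnp, while Mbp and Mog were at 1.85 FPKM or less. Neuron markers (4 of 12) summed to 55 to 62.9 FPKM in TIC and 41.9 to 49.7 FPKM with IFNγ. Snap25 and Map2 fell and 2 rose. Tubb3 rose by 1.12 (SE 0.20, adjusted p = 0.000353) from 2.96, 3.38 and 2.58 FPKM. Syt1 rose by 0.62 (SE 0.15, adjusted p = 0.005) from 0.721, 0.459 and 0.699 FPKM, a call lost with a pseudocount of 0.1 (adjusted p = 0.145). Pericyte and fibroblast markers (6 of 9) summed to 28.2 to 34.1 FPKM in TIC and 78.8 to 94.3 FPKM with IFNγ, nearly all of it Tagln, with Col1a1, Pdgfrb, Lum, Dcn and Col3a1 at 3.28 FPKM or less. Endothelial markers (3 of 9) summed to 7.96 to 9.04 FPKM in TIC and 4.27 to 5.14 FPKM with IFNγ. Nearly all of it was Flt1, which averaged 0.134 FPKM in control, 7.69 FPKM in TIC and 4.38 FPKM with IFNγ on TIC. The fall of Flt1 (-0.69) was not called with a pseudocount of 0.1 (adjusted p = 0.157). Ependymal markers (2 of 5) summed to 13.7 to 18.6 FPKM in TIC and 15.1 to 15.3 FPKM with IFNγ, and none of 6 T and natural killer cell markers was in the table. No marker in the table was at 0 in all 6 libraries. Their part in the results was not tested.

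**Figure D4:**
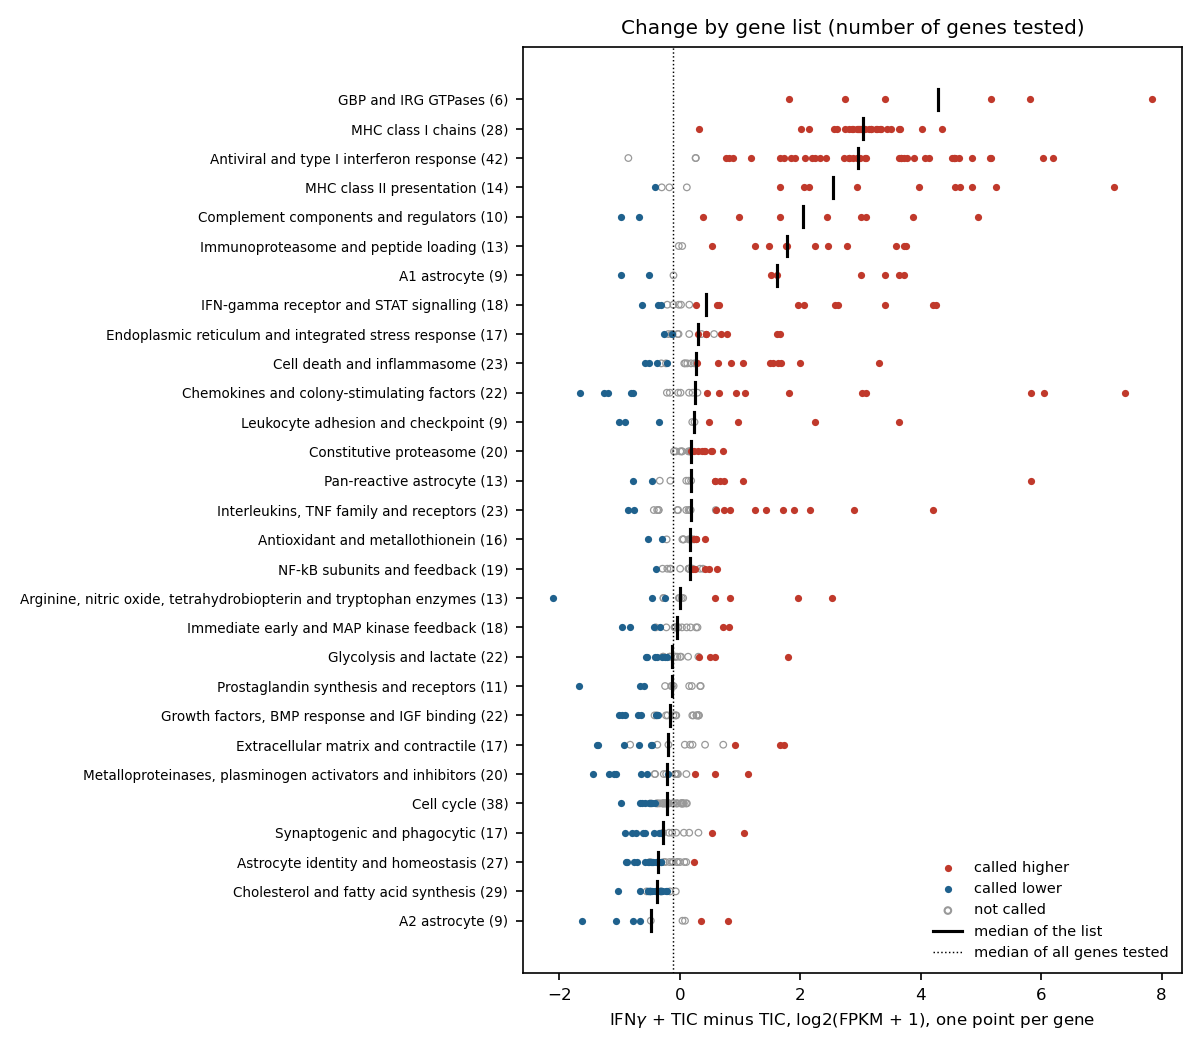
Change with IFNγ on TIC (x axis, log2(FPKM + 1)) of every tested gene of 29 lists (y axis, with the number of genes tested), ordered by the list's median. Red points were called higher, blue points called lower, open points not called; black ticks are list medians and the dotted line is the median of all tested genes, -0.12. The GTPase, MHC class I, antiviral and MHC class II lists lie to the right, and the A2, cholesterol and astrocyte identity lists to the left.

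Cholesterol and fatty acid synthesis fell in 25 of 29 measured genes (86.2%, against 21.8% of all genes), with 0 rising and a median of -0.38. By unadjusted p under 0.05 the counts were 26 and 0. With median-ratio scaling 20 fell, with a median of -0.26. Hsd17b7, an enzyme of the last steps to cholesterol, was at 81.9, 88.8 and 87.6 FPKM in TIC and 44.5, 41.7 and 39.8 FPKM with IFNγ. It had the largest change of the list, -1.02 (SE 0.07, adjusted p = 6.61e-09). Stard4, a carrier of cholesterol, was at 31.3, 31.8 and 31.8 FPKM in TIC and 20.4, 18.9 and 19.3 FPKM with IFNγ, and fell by 0.67 (SE 0.07, adjusted p = 1.31e-06). Dhcr7 changed by -0.53 (SE 0.06, adjusted p = 7.68e-06) and Fasn, the fatty acid synthase, by -0.52 (SE 0.09, adjusted p = 0.000194). With IFNγ alone 9 of the 29 fell, against 7.17% of all genes. Between IFNγ and IFNβ on TIC, 16 of the 29 were higher with IFNγ and 0 lower, against 12.7% and 9.72% of all genes.

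Synaptogenic and phagocytic genes fell in 8 of 17 (47.1%, against 21.8% of all genes). They rose in 2 (11.8%, against 7.42%), and the median was -0.28. Gas6, a ligand that bridges dying cells to the receptor Mertk, was at 363, 406 and 400 FPKM in TIC and 219, 207 and 197 FPKM with IFNγ, and fell by 0.91 (SE 0.07, adjusted p = 1.38e-08). Mfge8, another bridging ligand, changed by -0.72 (SE 0.11, adjusted p = 5.93e-05) and Thbs4 by -0.79 (SE 0.12, adjusted p = 0.000125). Thbs1, a synapse-inducing thrombospondin, was low, at 0.433, 0.385 and 0.243 FPKM in TIC and 1.64, 2.08 and 1.79 FPKM with IFNγ, and rose by 1.07 (SE 0.20, adjusted p = 0.000703). Mertk was the other gene that rose, by 0.54 (SE 0.12, adjusted p = 0.0023). Of 22 growth factors, BMP response and IGF-binding genes, 7 fell (31.8%, against 21.8% of all genes) and 0 rose (8 and 1 by unadjusted p under 0.05; 5 and 1 with median-ratio scaling), with a median of -0.16 near the -0.12 of all genes. Hbegf, a ligand of the EGF receptor, was at 256, 284 and 304 FPKM in TIC and 138, 133 and 143 FPKM with IFNγ, and fell by 1.02 (SE 0.14, adjusted p = 2.59e-05). Igfbp4 changed by -0.97 (SE 0.15, adjusted p = 8.22e-05) and Fgf2 by -0.91 (SE 0.13, adjusted p = 4.92e-05).

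Among 20 metalloproteinases, plasminogen activators and inhibitors, 3 rose (15%, against 7.42% of all genes) and 7 fell (35%, against 21.8%). The median was -0.22 beside -0.12 for all genes. Mmp9, a gelatinase, was at 54.9, 66.3 and 61.5 FPKM in TIC and 32.2, 25.8 and 26 FPKM with IFNγ, and fell by 1.10 (SE 0.10, adjusted p = 3.17e-07). Plaur, the urokinase receptor, was at 35.3, 43.9 and 51.8 FPKM in TIC and 19.4, 18.4 and 17.9 FPKM with IFNγ, and fell by 1.17 (SE 0.24, adjusted p = 0.00155). The groups did not overlap for either gene. Adamts1 fell by 1.44 (SE 0.23, adjusted p = 0.000121), and the genes that rose included the inhibitor Timp1 and the activator Plat. Of 17 matrix and contractile genes, 3 rose (17.6%) and 6 fell (35.3%), beside 7.42% and 21.8% of all genes. Tagln and Myl9, which bind or regulate contractile actomyosin, rose by 1.73 (SE 0.15, adjusted p = 7.68e-08) and 1.66 (SE 0.18, adjusted p = 1.36e-06), and the third riser was Tpm1. Col5a2 fell by 1.36 (SE 0.14, adjusted p = 8.24e-07). Ctgf, a matricellular protein, was at 5.72, 7.83 and 9.62 FPKM in TIC and 1.63, 1.92 and 3.66 FPKM with IFNγ, and fell by 1.38 (SE 0.41, adjusted p = 0.0176), which was not called without TIC replicate 3 (adjusted p = 0.0707) or IFNγ with TIC replicate 1 (0.0712) or 2 (0.0588).

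Genes of the integrated stress response changed differently on TIC and alone. Of 17 endoplasmic reticulum and integrated stress genes 7 rose (41.2%, against 7.42% of all genes) and 2 fell (11.8%, against 21.8%). The median was 0.31. With IFNγ alone 3 rose and 4 fell, against 7.11% and 7.17% of all genes. Ddit3, the transcription factor CHOP, was at 19.7, 22.1 and 25 FPKM in TIC and 61.5, 76.4 and 80.4 FPKM with IFNγ. The groups were well apart, a rise of 1.66 (SE 0.16, adjusted p = 3.61e-07). With IFNγ alone it was at 14.2, 16.4 and 16.9 FPKM, beside 13.1, 21.4 and 22.5 FPKM in control, and the difference of the changes was 1.88 (SE 0.22, adjusted p = 2.7e-05). Atf3, another stress-induced transcription factor, was at 18.3, 20.1 and 23.1 FPKM in TIC and 67.5, 61.2 and 65.3 FPKM with IFNγ, a rise of 1.61 (SE 0.29, adjusted p = 0.000406). With IFNγ alone Atf3 was at 5.96, 11.3 and 7.79 FPKM, beside 10, 28.3 and 30.2 FPKM in control, and these groups overlapped. The difference of the changes was 2.86 (SE 0.41, adjusted p = 0.000153). Chac1, which degrades glutathione, rose by 0.68 (SE 0.18, adjusted p = 0.00888). Trib3 rose by 0.78 (SE 0.28, adjusted p = 0.0416), a call that was lost without any one of the 6 libraries (adjusted p 0.053 to 0.125). The difference of the changes was positive for 8 of the 17 genes and negative for 4, against 3.64% and 10.2% of all genes. The 2 that fell were the chaperone Hspa5 and Pdia4, with small changes of -0.14 and -0.26, and neither was called with median-ratio scaling. That count was also 0 without TIC replicate 2 or 3, and 1 without any of the IFNγ with TIC libraries.

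Of 38 measured cell cycle genes 8 fell (21.1%, near the 21.8% of all genes) and 0 rose (12 and 0 by unadjusted p under 0.05), with a median of -0.22. With IFNγ alone 20 fell, against 7.17% of all genes, and 1 rose. Tk1, a thymidine kinase, was at 31.3, 28.4 and 28.5 FPKM in control, 7.36, 5.55 and 5.81 FPKM in TIC and 3.85, 2.2 and 2.15 FPKM with IFNγ on TIC, and fell by 0.98 (SE 0.17, adjusted p = 0.000298). Rrm2, a subunit of ribonucleotide reductase, changed by -0.63 (SE 0.14, adjusted p = 0.00324) and Ccnd2 by -0.66 (SE 0.11, adjusted p = 0.000194). The difference of the changes passed the test in the positive direction for 5 of the 38 genes and in the negative for 1, against 3.64% and 10.2% of all genes. Glycolysis genes moved both ways, 4 of 22 higher (18.2%, against 7.42% of all genes) and 7 lower (31.8%, against 21.8%). The median was that of all genes, -0.12. With median-ratio scaling 4 of the 22 were lower, beside 1231 of all 10296 genes. Pfkp, a phosphofructokinase, was at 44.9, 48.4 and 48.1 FPKM in TIC and 172, 165 and 162 FPKM with IFNγ, without overlap, and rose by 1.80 (SE 0.06, adjusted p = 9.08e-14). Eno1 changed by -0.56 (SE 0.07, adjusted p = 7.83e-06) and Pkm by -0.55 (SE 0.06, adjusted p = 3.09e-06). Of 11 prostaglandin genes 3 fell (27.3%) and 0 rose (likewise by unadjusted p under 0.05), with a median of -0.13, so that the list lay near all genes (21.8% and -0.12). Pla2g2a, a secreted phospholipase, was at 7.54, 10.2 and 6.69 FPKM in TIC and 1.77, 1.39 and 2.39 FPKM with IFNγ, and fell by 1.68 (SE 0.16, adjusted p = 3.69e-07). The other falls, of Ptgs2 (-0.66, SE 0.23, adjusted p = 0.0384) and Pla2g4a (-0.59, SE 0.19, adjusted p = 0.0306), were not called with median-ratio scaling or a pseudocount of 0.1, where the count was 1. It was also 1 without TIC replicate 1, 2 or 3 or IFNγ with TIC replicate 2, and the adjusted p of Ptgs2 then ranged from 0.0585 to 0.126 and that of Pla2g4a from 0.0612 to 0.11.

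The lists of antioxidant genes (4 of 16 rose, 2 fell) and immediate early and MAP kinase feedback genes (2 of 18 rose, 4 fell) had medians of 0.17 and -0.05. In the first list 25% rose and 12.5% fell. In the second list 11.1% rose and 22.2% fell, near the 7.42% and 21.8% of all genes. Txnrd1, a thioredoxin reductase, rose by 0.42 (SE 0.10, adjusted p = 0.00427) and the metallothionein Mt3 fell by 0.53 (SE 0.12, adjusted p = 0.00318). Spry4, a feedback inhibitor of receptor tyrosine kinases, was at 21.8, 22.9 and 21.1 FPKM in TIC and 11.2, 10.8 and 10.4 FPKM with IFNγ, and fell by 0.96 (SE 0.13, adjusted p = 2.14e-05), while Spry1 rose by 0.81 (SE 0.13, adjusted p = 0.000129). Fos fell by 0.83 (SE 0.18, adjusted p = 0.00187). The antioxidant count of 2 falling was 1 with median-ratio scaling, and the count of 4 rising was 2 without TIC replicate 1 or 2 and 1 without IFNγ with TIC replicate 3. In the immediate early list, the count of 4 falling was 2 with median-ratio scaling and without TIC replicate 3 or IFNγ with TIC replicate 1, and the count of 2 rising was 1 without TIC replicate 1 or 2 or IFNγ with TIC replicate 3.

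The change with IFNγ on TIC and the change with IFNγ alone came from separate libraries, which let their calls be set side by side. Both tests used the same estimate of each gene's spread, from all 18 libraries, so their calls were not fully independent. IFNγ alone changed 1470 of the 10296 genes (14.3%), 732 higher (7.11%) and 738 lower (7.17%), of which 253 were higher by 1 or more on the log2 scale (2.46%) and 37 lower by as much (0.359%; 80 with a pseudocount of 0.1). The count of lower genes was 466 without IFNγ replicate 3. Genes higher in both numbered 381, 49.9% of those higher on TIC and 52% of those higher alone. Genes lower in both numbered 297, 13.2% of those lower on TIC and 40.2% of those lower alone. A further 26 genes rose on TIC and fell alone, and 83 fell on TIC and rose alone. Of the 265 genes that rose by 1 or more on TIC, 223 also rose alone, with a median of 1.96 on TIC and 1.69 alone. Of the 146 that fell by 1 or more on TIC, 33 also fell alone, 8 rose and 105 were not called, with a median of -1.21 on TIC and -0.16 alone. A call that is missing alone does not show that the change differed, which the interaction term tests.

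**Figure D5:**
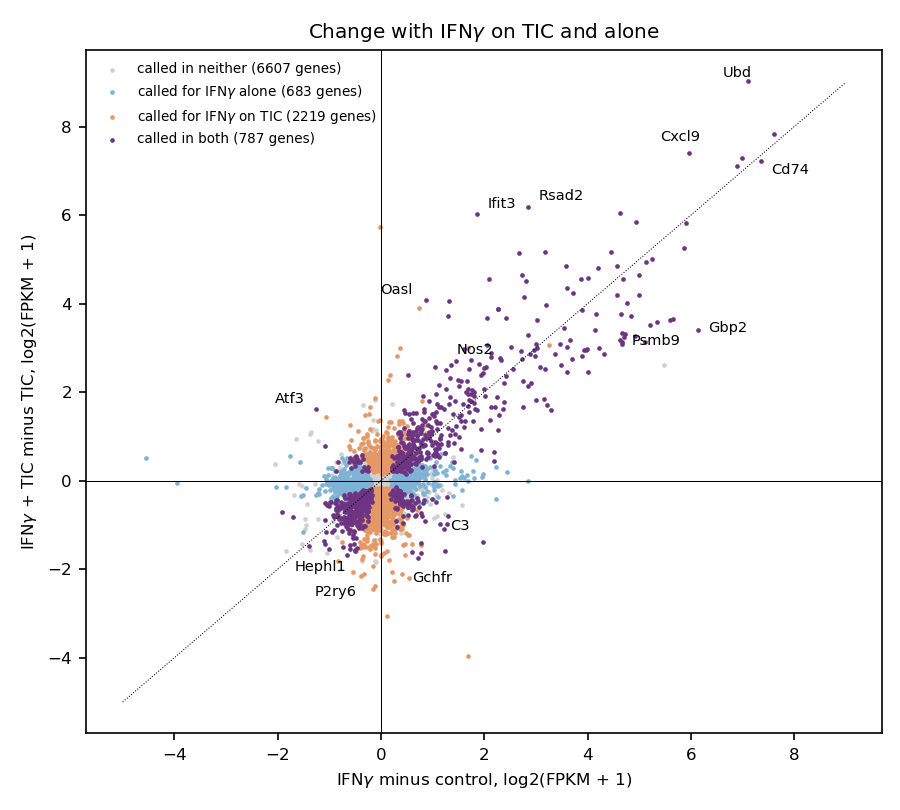
Change with IFNγ on TIC (y axis) against change with IFNγ alone (x axis), both as differences of log2(FPKM + 1), for 10296 genes. Colours give the comparisons in which a gene was called and the dotted line marks equal changes; Rsad2, Ifit3 and Oasl lie above it and Gbp2, Psmb9 and C3 below.

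The interaction term, the change with IFNγ on TIC minus the change with IFNγ alone, passed the test for 1427 genes (13.9%), 375 in the positive direction (3.64%) and 1052 in the negative (10.2%). By size, 98 were positive by 1 or more (0.952%) and 212 negative by as much (2.06%). The 8 highest were Marcksl1, Ifit3, Rsad2, Oasl, Atf3, MGC105649, Sp100 and Oas1k, of which Ifit3, Rsad2, Oasl, Sp100 and Oas1k are antiviral genes. MGC105649, an uncharacterised gene, was at 0.747, 0.704 and 0.956 FPKM in TIC, 27.4, 26.7 and 33.3 FPKM with IFNγ on TIC and 2.77, 2.1 and 2.34 FPKM with IFNγ alone, a difference of 2.74 (SE 0.22, adjusted p = 2.76e-07). With IFNβ on TIC it was at 2.35, 2.92 and 1.68 FPKM. Sp100, a nuclear body protein, was at 0.239, 0 and 0 FPKM in TIC and 7.5, 9.33 and 6.2 FPKM with IFNγ on TIC, and at most 1.03 FPKM with IFNγ alone (2.64, SE 0.28, adjusted p = 8.89e-06). Marcksl1 was at 123, 0 and 0 FPKM with IFNγ alone and above 100 FPKM in every control, TIC and IFNγ with TIC library. Its difference (5.07, SE 1.61, adjusted p = 0.0445) was not called when any library of these 4 groups other than IFNγ replicate 1 was left out (adjusted p 0.0662 to 0.116).

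The 8 lowest differences were those of Lmo2, Ctgf, Ndst2, Calb1, Krt18, Gbp2, Cav1 and Fabp4. Calb1, the calcium-binding protein calbindin, rose with IFNγ alone, from 2.51, 0.834 and 2.75 FPKM to 6.65, 5.18 and 5.84 FPKM, and fell on TIC, from 11.9, 9.12 and 9.13 FPKM to 2.79, 2.04 and 3.13 FPKM. The groups did not overlap in either setting, and the difference was -2.84 (SE 0.36, adjusted p = 5.22e-05). Ctgf went the same way, from 1.29, 0.402 and 1.18 FPKM to 14.8, 2.37 and 7 FPKM alone, with a difference of -3.36 (SE 0.58, adjusted p = 0.000861). Cav1, the caveolar coat protein, was at 41.6, 25.9 and 33.8 FPKM in TIC and 34.6, 16.8 and 25.9 FPKM with IFNγ on TIC, which overlapped. It rose with IFNγ alone, and its difference (-2.63, SE 0.74, adjusted p = 0.0249) was not called without IFNγ replicate 1 (adjusted p = 0.0612), TIC replicate 1 (0.0533) or IFNγ with TIC replicate 2 (0.0645), or with a pseudocount of 0.1 (0.0861). Krt18 and Fabp4 differed by -2.74 (SE 0.28, adjusted p = 5.05e-06) and -2.52 (SE 0.31, adjusted p = 3.72e-05). Ndst2, a heparan sulfate enzyme, was listed at 0 in all control, TIC and IFNγ with TIC libraries and at 6.06, 5.79 and 6.78 FPKM with IFNγ alone, and Lmo2 was listed at 0 in all control libraries, so no fold is given for either.

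IFNγ and IFNβ on the same TIC background differed for 2305 genes (22.4%), 1304 higher with IFNγ (12.7%) and 1001 lower (9.72%), of which 127 (1.23%) and 191 (1.86%; 311 with a pseudocount of 0.1) by 1 or more on the log2 scale. The genes highest with IFNγ included Irf8, Cd74, Ubd, RT1-Db1 and RT1-Da. Irf8 was at 23.3, 21.8 and 23.2 FPKM with IFNγ on TIC and 0.45, 0.328 and 0.442 FPKM with IFNβ on TIC. The IFNβ libraries lay within the range of TIC without interferon, and the difference was 4.08 (SE 0.15, adjusted p = 8.51e-12). Cd74 differed by 3.64 (SE 0.14, adjusted p = 8.51e-12), Ubd by 2.97 (SE 0.22, adjusted p = 2.33e-08), RT1-Db1 by 2.83 (SE 0.15, adjusted p = 3.39e-10) and RT1-Da by 2.76 (SE 0.11, adjusted p = 1.17e-11). Wdr77 and Ifnar1, also among the 8 highest, were listed near 0 in some libraries and above 20 FPKM in others of the same kind, Ifnar1 at 0.558, 32.4 and 25.3 FPKM in the TIC libraries. The 8 lowest were Lgals9, Irf7, Lgals5, Phf11, Ccl12, Isg20, Oasl and RGD1562462. Irf7, the transcription factor that amplifies type I interferon, was at 123, 134 and 134 FPKM with IFNγ on TIC and 1980, 2150 and 2360 FPKM with IFNβ on TIC, a difference of -4.04 (SE 0.23, adjusted p = 9.54e-10). The galectin Lgals9 was at 27, 27 and 27.8 FPKM with IFNγ on TIC and 462, 469 and 520 FPKM with IFNβ on TIC (-4.10, SE 0.26, adjusted p = 3.95e-09). Both genes were higher in every library of IFNβ with TIC. Ccl12, a chemokine for monocytes, was at 3.01, 3.51 and 3.58 FPKM with IFNγ on TIC and 49.9, 52.3 and 69.4 FPKM with IFNβ on TIC (-3.72, SE 0.29, adjusted p = 4.59e-08). Nfkbia did not pass the test, with a difference of 0.14 (SE 0.10, adjusted p = 0.342).

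The authors' deposited table gives log2 fold changes against control and none between IFNγ with TIC and TIC. The difference of its values for these groups had the same sign as the change reported here for 397 of the 403 genes with both values, out of the 411 that changed by 1 or more. That is the same libraries read a second way, not an independent check. Plaur and Myh9l1, given above as falls, were among the genes with the opposite sign, with deposited differences of 0.06 and 0.12. Mfge8, with a change of -0.72 here, also had a deposited difference of the opposite sign (0.16).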

How the data were processed

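RNA sequencing of 18 libraries in 6 groups of 3 was used. Per the labels' protocols, total RNA was extracted with an Agilent kit and amplified with SMART-Seq chemistry before Nextera XT libraries were made. The authors' deposited table gives FPKM per gene and library, with rat Ensembl identifiers. HISAT2, StringTie, DESeq2 and the build mm10 are named, per the submitters' processing notes; the versions were not given in the sources used here, and a mouse build beside rat identifiers could not be reconciled. FPKM hold no counts, so the depth is unknown. A deposited table of log2 fold changes against control, made by the authors, was used for signs alone.

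From the table, 3 unnamed entries (up to 0.012% of the summed FPKM) were left out, 15 of 17 symbols that a spreadsheet had turned into numbers were kept by their Ensembl identifier, and genes reaching 1 FPKM in at least 3 libraries were tested. limma 3.58.1 in R 4.3.3 was fitted to log2(FPKM + 1) of all 18 libraries with 6 group means and a prior variance with a trend (12 residual degrees of freedom), because the groups then share 1 estimate of the spread. P-values are two-sided and adjusted by the Benjamini-Hochberg method over all tested genes, with a threshold of 0.05, and intervals are 95% intervals of the difference from limma. Contrasts were IFNγ with TIC minus TIC, IFNγ minus control, the difference of these 2 changes (the interaction term), and IFNγ with TIC minus IFNβ with TIC. IFNγ with TIC libraries enter 3 of these contrasts, so their calls are not independent.

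Named genes were the 12 highest and 12 lowest changes with a mean of 5 FPKM or more and groups that did not overlap, the 4 largest called changes of each list, the 8 highest and 8 lowest of the interaction term and of IFNγ against IFNβ, and a set of 28 genes. Members of small counts were added after their values were seen. The comparison, members and lists were chosen with earlier results of these data known. Lists are described by counts and medians. Alternatives were a pseudocount of 0.1, no filter, median-ratio scaling, an equal sum per library, a fit of the groups compared alone, library weights, a prior variance without a trend, the replicate number as a block, and leaving out each library in turn. Leaving out genes that moved between 0.5 FPKM or less and 10 FPKM or more within a group was added after the data were seen. IFNβ without TIC entered the estimate of spread and was otherwise not used here. Results for a few genes are not reported here.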

Additional observations from a re-analysis of the deposited data

Results flagged for a closer look

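The change with IFNγ differed between TIC and no TIC, by the interaction term of the limma fit (adjusted p under 0.05), for 375 genes that were more positive on TIC and 1052 that were more negative. Values below are the change on TIC minus the change alone on the log2(FPKM + 1) scale. Groups of 3 libraries are too small for the test of single outlying libraries used here, so none was run.

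Among the genes with the most positive differences, the antiviral genes Ifit3, Rsad2, Oasl, Sp100 and Oas1k stood at 4.17, 3.34, 3.21, 2.64 and 2.49. Atf3, the stress-induced transcription factor, was at 2.86 and the uncharacterised MGC105649 at 2.74. Marcksl1 was at 5.07, with 2 of 3 libraries of IFNγ alone listed at 0. Of the genes of the IFNγ response, Ubd was at 1.92, Cfb at 1.61 and Cxcl9 at 1.43.

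Lmo2 and Ndst2 were also more negative on TIC, and no value is given because both were listed at 0 in all control libraries. Among the others, Ctgf was at -3.36, Calb1 at -2.84, Krt18 at -2.74, Gbp2 at -2.73, Cav1 at -2.63 and Fabp4 at -2.52. Complement C3 and Serping1 were at -2.13 and -1.21. The antigen presentation genes Psmb9, Tap1 and RT1-Da were at -1.76, -0.89 and -0.63. Ccl2 was at -1.34, Lcn2 at -1.31 and Vim at -0.67. The pathway gene Irf1 was at -0.75, with rises in both settings.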

How the results depend on the processing

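Of the counts over all genes with IFNγ on TIC, 2 moved by more than 1.5 times: 1231 genes were lower with median-ratio scaling, against 2242, and with a pseudocount of 0.1 302 had a log2 fall of at least 1, against 146. That pseudocount also gave 80 such genes alone, against 37, and 311 against IFNβ, against 191. With the groups compared fitted alone, IFNγ without TIC changed 804 genes, 315 of them lower and 22 lower by 1 or more, against 1470, 738 and 37. The causes were not tested. Leaving out each library in turn gave 2354 to 2759 genes called on TIC (638 to 680 higher, 1709 to 2079 lower), 1091 to 1351 alone (625 to 727 higher, 466 to 708 lower, the lowest without IFNγ replicate 3), 1074 to 1436 for the interaction term (278 to 381 higher, 795 to 1074 lower) and 1752 to 2013 against IFNβ (941 to 1117 higher, 811 to 896 lower). The libraries of both groups carry replicate numbers 1 to 3. Deviations from the group mean correlated with r of 0.076, 0.074 and 0.131 between same-numbered libraries. For the other pairs r ran from -0.074 to 0.002, so each TIC library correlated best with its own number. The labels do not say whether a number marks a shared preparation, and this was not tested. With the replicate number as a block 763 genes rose and 2234 fell, and no call of a named gene changed. No result reversed. Over 1254 combinations of a named gene's result and a left-out library, 61 lost the call. Single results, such as those of Myh9l1 and Cd68, lost it with any of the 6 libraries left out. Of 193 results, 11 lost their call with a pseudocount of 0.1 and 5 with median-ratio scaling, which added the call of Vim. Some results, such as that of Gch1, had no call to lose. Low genes are limited by the FPKM scale, on which reads behind a value are unknown.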
